A study of Mus musculus with 4 samples.

Results

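MicroRNA loci are the stretches of the genome from which the hairpin precursors of microRNAs are made. The members described here are the genes of the deposited mouse annotation whose biotype is miRNA and whose name begins with Mir. They number 1051 of 46078 annotated genes, and 1051 of the 2250 genes with the biotype miRNA. The other miRNA genes were left out by the rule, 167 because their names begin with mmu-mir and 1032 because they carry other names. Each member has 1 transcript with 1 exon, the mirbase source tag and a position on chromosomes 1 to 19 or X. The file is an annotation without values of any library, so every number below is a position, a length, a count or a share of gene models. Expression of these loci or their hosts in the macrophages was not analysed here, the depth of the libraries is unknown, and the macrophage label could not be set against marker genes.

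The study behind the annotation asked how macrophages respond to cyclic pressure and what the ion channel Piezo1 contributes. Bone marrow cells of C57/BL6 mice were grown into macrophages with M-CSF at 50 ng/mL and then kept for 6 h in a pressure chamber. The 4 groups hold 1 library each and were Piezo1 fl/fl (WT) cells under static pressure, Piezo1 fl/fl LysM Cre+ (KO) cells under static pressure, and both genotypes under hydrostatic pressure that cycled by about 15 mmHg. All groups carried the floxed Piezo1 allele and came from cohoused littermates, and the Cre was driven by the LysM promoter, which is active in myeloid cells. The libraries were made from polyA RNA and read as paired ends of 75 bases.

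A microRNA begins as part of a longer transcript that folds into a hairpin. The Drosha and DGCR8 complex cuts the hairpin out of that transcript, Dicer cuts off its loop, and an Argonaute protein keeps 1 strand, the mature microRNA. Bases 2 to 8 of the mature strand, called the seed, pair with sites in messenger RNAs and reduce their translation or stability. A locus can lie alone, in a noncoding host transcript, or inside an intron of a protein-coding host, and neighbouring loci can be cut from the same primary transcript. Mirtrons are a known exception, since the ends of their hairpins are made by splicing of a short intron and not by Drosha.

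The sequences below show what the positions of the loci mean in bases. They come from RefSeq for GRCm38.p6, run 5′ to 3′, and were matched to members by symbol and position. Hairpins were matched for 856 of the 1051 loci, and all 856 have the same start and end in both sources. Mature sequences were matched for 903 loci. The following mature strands lie in introns of paralogous coding hosts, and capitals mark the seed.
mmu-miR-103-3p: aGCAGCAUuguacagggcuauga
mmu-miR-107-3p: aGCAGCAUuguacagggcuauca
mmu-miR-208a-3p: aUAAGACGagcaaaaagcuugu
mmu-miR-208b-3p: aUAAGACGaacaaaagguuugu
mmu-miR-499-5p: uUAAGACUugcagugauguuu

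Mir103-1 and Mir103-2, in introns of Pank3 and Pank2, give the same 23-base mature strand. Mir107, in an intron of Pank1, differs from it by 1 substitution, G22C, with positions counted from 1 at the 5′ end. Pank1, Pank2 and Pank3 encode pantothenate kinases, the enzymes of the first step of coenzyme A synthesis. Mir208a in Myh6 and Mir208b in Myh7, the hosts being cardiac myosin heavy chain genes, differ at 3 of 22 positions (G10A, A16G and C18U) and have the same seed. Mir499 in Myh7b, another myosin heavy chain gene, has a seed that differs from that of Mir208a by G8U alone.

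The next set shows 3 clusters that carry the same seeds in a noncoding gene, in mostly intergenic sequence and in a coding gene. Mir17, Mir20a and Mir92-1 lie on chromosome 14, Mir106a, Mir20b, Mir92-2 and Mir363 on chromosome X, and Mir106b, Mir93 and Mir25 on chromosome 5. Capitals again mark the seed.
mmu-miR-17-5p: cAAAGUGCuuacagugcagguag
mmu-miR-20a-5p: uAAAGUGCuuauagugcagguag
mmu-miR-106a-5p: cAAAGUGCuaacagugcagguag
mmu-miR-20b-5p: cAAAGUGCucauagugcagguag
mmu-miR-106b-5p: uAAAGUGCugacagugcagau
mmu-miR-93-5p: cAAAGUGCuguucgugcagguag
mmu-miR-92a-3p: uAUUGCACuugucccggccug
mmu-miR-363-3p: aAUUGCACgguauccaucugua
mmu-miR-25-3p: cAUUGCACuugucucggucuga

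Relative to miR-17-5p, miR-106a-5p has U10A, miR-20a-5p has C1U and C12U, miR-20b-5p has U10C and C12U, and miR-93-5p has U10G, A11U, C12U and A13C. All of these substitutions lie outside bases 2 to 8. Mir92-1 on chromosome 14 and Mir92-2 on chromosome X give an identical 21-base miR-92a-3p.

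The let-7 family is known for its part in developmental timing and for its high conservation among animals. It holds the seed found at the most loci among the 903 with a mature sequence, which include 0 of the 59 loci in Sfmbt2, and 4 of its mature strands follow with the seed in capitals.
mmu-let-7a-5p: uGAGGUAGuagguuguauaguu
mmu-let-7b-5p: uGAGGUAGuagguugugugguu
mmu-let-7d-5p: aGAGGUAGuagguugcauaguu
mmu-miR-98-5p: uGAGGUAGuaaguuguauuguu

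Against let-7a-5p, the let-7b-5p strand differs by A17G and A19G, let-7d-5p by U1A and U16C, and miR-98-5p by G11A and A19U. Mirlet7a-1 is intergenic, Mirlet7d lies in a lincRNA gene and Mir98 lies in an intron of Huwe1, which encodes a ubiquitin ligase.

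Mature strands of loci from the inflammation and metabolism lists are shown because they stand in noncoding genes, in a 3′ untranslated region and in coding introns, with the seed in capitals.
mmu-miR-155-5p: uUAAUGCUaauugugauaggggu
mmu-miR-21a-5p: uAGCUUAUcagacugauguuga
mmu-miR-223-3p: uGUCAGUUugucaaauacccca
mmu-miR-146b-5p: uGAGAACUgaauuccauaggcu
mmu-miR-342-3p: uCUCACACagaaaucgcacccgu
mmu-miR-511-3p: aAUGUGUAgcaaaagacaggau
mmu-miR-33-5p: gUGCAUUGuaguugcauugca

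Hairpins that reach a splice site form the last set. In the first 5 the locus is a whole intron of its host, and capitals mark the GU that opens and the AG that closes it. In the last pair the hairpin is the end of a longer intron, and capitals mark the closing AG.
Mir877: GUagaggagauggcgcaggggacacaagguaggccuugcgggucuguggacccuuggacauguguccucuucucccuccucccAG
Mir1224: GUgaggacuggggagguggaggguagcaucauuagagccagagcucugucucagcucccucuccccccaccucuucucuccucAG
Mir6974: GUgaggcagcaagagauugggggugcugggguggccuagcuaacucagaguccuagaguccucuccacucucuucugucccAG
Mir7058: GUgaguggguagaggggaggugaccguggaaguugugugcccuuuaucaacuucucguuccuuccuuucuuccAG
Mir6923: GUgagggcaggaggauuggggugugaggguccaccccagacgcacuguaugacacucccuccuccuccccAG
Mir6978: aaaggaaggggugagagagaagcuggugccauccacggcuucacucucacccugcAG
Mir7086: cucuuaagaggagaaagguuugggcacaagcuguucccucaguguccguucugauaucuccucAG

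Mir877 (chr17:35960730-35960814, minus strand, GRCm38) is intron 12 of Abcf1, and Mir1224 (chr16:20604452-20604536, plus strand) is the intron of a short Vwa5b2 transcript. Mir6974 (chr17:35204475-35204557, minus strand) is intron 2 of Lta, the gene of lymphotoxin alpha. Mir7058 (chr7:126367971-126368045, minus strand) is intron 7 of Lat, which encodes an adaptor of T cell receptor signalling. Mir6923 (chr11:67099804-67099875, plus strand) is intron 34 of Myh3, and its 72 bases make it the shortest host intron of all coding-intron loci. Mir6978 (chr17:57217172-57217228, minus strand) closes intron 22 of the complement gene C3, and Mir7086 (chr9:45266643-45266707, minus strand) closes intron 2 of Il10ra, which encodes a chain of the interleukin 10 receptor. Of these 7 hairpins and their hosts, all but Mir6923 were chosen after their values were seen.

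The most frequent place of a Mir locus was an intron of a coding gene on its own strand, with 461 loci or 43.9%. A further 148 loci (14.1%) shared at least 1 base with an exon of such a gene, so 609 loci (57.9%) had a coding host. Another 96 loci (9.13%) lay over a coding gene on the opposite strand only, 86 (8.18%) lay in a noncoding gene, and 260 (24.7%) were intergenic. The 59 loci inside Sfmbt2 are 1 intron of 1 gene, and without them the intron share was 40.5% of 992 loci and the intergenic share 26.2%. With each cluster counted once, the 837 clusters and single loci split into 45.5% intron, 16.8% exon, 9.68% opposite, 6.45% noncoding and 21.5% intergenic.

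**Figure D1:**
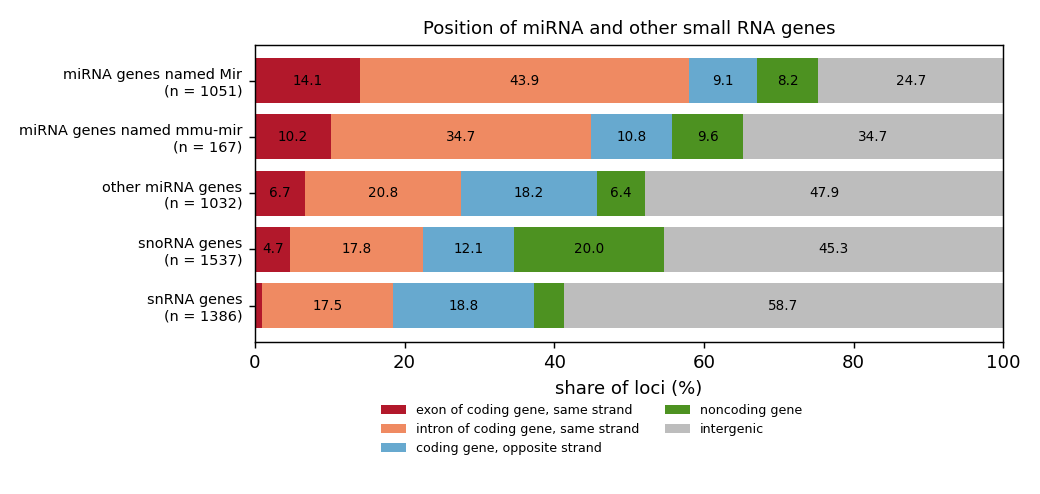
Share of loci (percent, horizontal axis) in each of 5 positions, for the Mir genes and for 4 other sets of small RNA genes of the same annotation, with the number of genes beside each bar. The red and orange parts, loci in exons and introns of coding genes on the same strand, together cover 57.9% of the Mir genes, and the grey intergenic part grows from 24.7% there to 58.7% of the snRNA genes.

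Mir loci mostly pointed the way of the coding gene around them. Of 688 Mir loci that lay over coding genes on a single strand, 592 (86.0%) had the strand of the coding gene. The same share was 80.2% for the 91 such genes named mmu-mir, 59.5% for the 464 other miRNA genes, 64.8% for 529 snoRNA genes and 48.5% for 507 snRNA genes. With each cluster counted once the Mir share was 86.2%. A further 17 Mir loci lay over coding genes on both strands. The run of names from 6897 to 7119, described below, had 145 intron, 35 exon and 0 opposite loci. Other names had 316 intron, 113 exon and 96 opposite loci, with an intron share of 36.3% and an intergenic share of 29.8%. The same-strand share without this run was not computed. Genes named mmu-mir had an intron share of 34.7%, an intergenic share of 34.7% and a clustered share of 32.3%. The other miRNA genes had an intron share of 20.8%, an intergenic share of 47.9% and a clustered share of 11.2%, and their median length was 104 bases against 82 bases for the Mir loci.

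The Mir loci were 49 to 139 bases long. No member shared a base with another member, and each had a start-site group of its own in the annotation's attributes. For 364 loci (34.6%) the whole annotated gene was shorter than a single 75-base read of these libraries. In a library made from polyA RNA, a read over an intronic or exonic locus can come from the host transcript, and the loci in coding hosts are 57.9% of the set. How many reads fell on them was not analysed here.

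The 148 loci that touched coding exons were a mixed group. For 65 of them (43.9%) at least 1 base lay in coding sequence of a host transcript. Of the rest, 22 (14.9%) touched a 5′ untranslated region and 25 (16.9%) a 3′ untranslated region. The other 36 (24.3%) touched only exons of host transcripts that are not themselves classed as protein-coding. Exons covered 94 of the loci (63.5%) from end to end, whereas 22 (14.9%) shared under 10 bases. Mir26a-2, for example, shares 1 of its 84 bases with an exon of Ctdsp2. In another host transcript the whole locus lies in an intron of 1946 bases. This locus was chosen after its values were seen. For 61 of the 148 loci (41.2%), an intron of some transcript of a same-strand coding gene held the locus completely. The border between the exon and intron classes thus depends on which transcripts are counted.

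Of the 86 loci in noncoding genes, 82 (95.3%) had the strand of that gene and 53 (61.6%) touched 1 of its exons. The genes were lincRNA genes for 62 loci, processed transcripts for 20 and genes classed as antisense for 5. Of the 96 loci opposite coding genes, 28 (29.2%) lay opposite an exon.

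The 609 loci with a coding host fell in 519 genes, which are 2.34% of the 22159 coding genes. A locus that touches an exon was credited to the gene of that exon. Of these hosts, 488 held 1 locus, 23 held 2, 5 held 3, 2 held 5 and 1 held 59. The host with 59 is Sfmbt2 on chromosome 2, a Polycomb group gene. Its loci all lie in intron 10, which is 62472 bases long, and carry names of the families Mir466 (20 loci), Mir669 (20) and Mir467 (14). Clcn5, which encodes a chloride and proton exchanger, holds Mir500, Mir501, Mir362, Mir188 and Mir532 in an intron of 103648 bases. Htr2c, the gene of a serotonin receptor, holds Mir764, Mir1912, Mir1264 and Mir1298 in an intron of 85268 bases and Mir448 in another intron, of 93522 bases. The hosts credited with 3 loci are Mcm7, Ttll10, Huwe1, Cdc20b and Gm20388. Of these, Ttll10, Cdc20b and Gm20388, with the genes named beside Gm20388, were chosen after their values were seen. Ttll10 holds Mir429, Mir200a and Mir200b in its first intron, and Cdc20b holds Mir449a, Mir449b and Mir449c in its second. Gm20388 is a model of 4434882 bases that spans many other genes, and its 3 loci also lie in introns of Gse1, Banp and Urb2. The exon loci Mir7079 and Mir7080, credited to other genes, lie in its span too, which makes 5 loci. Over the whole set, 14 same-strand loci lay in more than 1 coding gene.

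Hosts were long genes with many introns. The median span of a host was 34173 bases, against 15962 bases for coding genes without a Mir locus, and the median number of introns was 12 against 6 over all coding genes. A longer gene offers more bases in which a locus can lie, and the share that length takes in this difference was not tested. Hosts of snoRNA or scaRNA genes numbered 276, which are 1.25% of all coding genes. Of the 519 Mir hosts, 15 also hosted a gene of that kind. Whether this overlap differs from the share over all coding genes was not tested. The 15 include Htr2c and Tmem180 with Mir146b.

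The intron around a coding-intron locus had a median length of 4204 bases and ranged from 72 to 707667. Without the Sfmbt2 loci the median was 2491.5 bases. All introns of the host genes had a median of 1090 bases and all introns of coding genes 1431 bases. Introns differ in how much sequence they offer, since introns shorter than 29290 bases hold 50% of the intron bases of coding genes. For the host genes alone that length is 62561 bases. The median host intron of the loci was below both lengths, also with the longest holding intron taken (6388 bases). Of the coding-intron loci, 145 belong to the run of names from 6897 to 7119 described below. Host introns in that run had a median of 412 bases. The longest host intron is intron 1 of Sgcz, a sarcoglycan gene, with Mir383 at 409306 bases from the transcript start. The locus nearest to a start is Mir3091, which begins 159 bases into Rps21, the gene of a ribosomal protein of the small subunit.

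Without Sfmbt2, 84 of 402 coding-intron loci (20.9%) lay in intron 1 of their host transcript, and intron 1 holds 24.5% of the intron bases of the same transcripts. Their median distance from the transcript start was 18019.5 bases, or 56.7% of the way along. The positions ranged from 0.23% to 99.48% of the way along. The share of loci in intron 1 was not above its share of the pooled intron bases, in which long transcripts weigh most. Whether loci favour or avoid intron 1 was not tested.

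A large group of loci sat against a splice site. Among the 522 same-strand loci wholly within a host intron, 183 (35.1%) ended within 2 bases of the 3′ splice site, and 179 of these ended exactly at it. Only 25 (4.79%) began within 2 bases of the 5′ splice site, and 20 did both and so were a whole intron. In the 68 introns under 150 bases, 63 loci reached the 3′ site, 25 the 5′ site, and all 68 reached at least 1 of them. In the 454 longer introns 120 loci (26.4%) reached the 3′ site and 0 the 5′ site. The loci at the 3′ site were shorter, with a median of 66 bases against 85 for the other members.

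**Figure D2:**
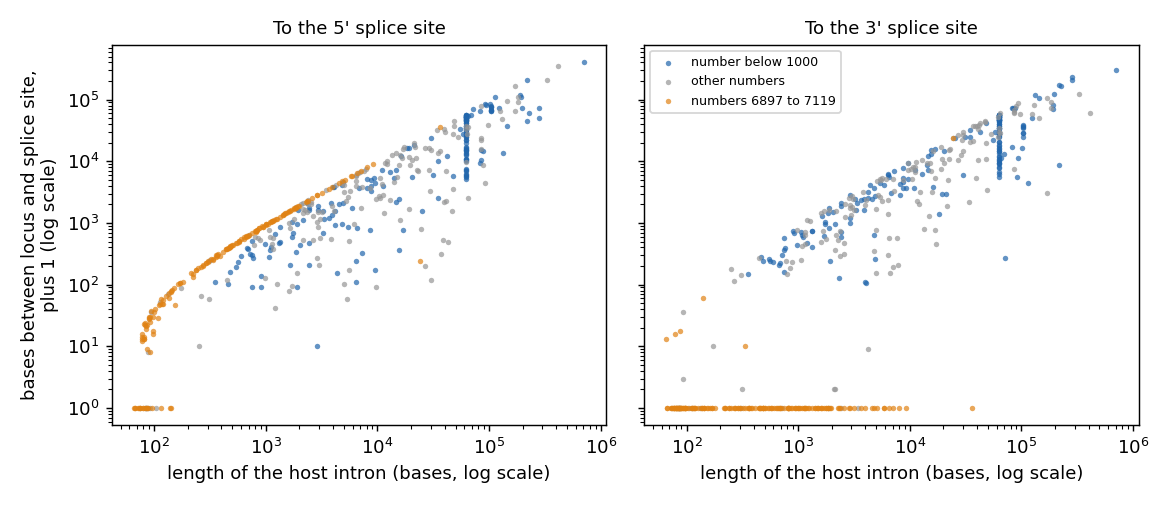
Distance from each of the 522 intron-held loci to the 5′ splice site (left) and to the 3′ splice site (right) of its host intron, in bases plus 1 on a log scale, against intron length in bases on a log scale. Points on the bottom line touch the splice site: at the 3′ site they are 179 loci in introns of widely different length, nearly all orange (names with numbers 6897 to 7119), while at the 5′ site they stop at introns under 150 bases, and the vertical streak of blue points is the Sfmbt2 intron.

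The RefSeq hairpins carried the letters of those splice sites. Of 145 hairpins that end at the 3′ site with more intron before them, all 145 end in AG and 12 (8.28%) start with GU. Of 16 hairpins that are a whole intron, 15 start with GU and 16 end in AG. Among 238 hairpins more than 2 bases from both sites, 15 (6.30%) end in AG and 16 (6.72%) start with GU. An AG at the end is what an intron end implies, so these letters check the coordinates of the loci. Median GC content was 57.4% for the 145 at the 3′ site, 60.2% for whole introns and 50.7% for the others. The annotated mature strand ran to the very end of the locus in 115 of those 145 cases (79.3%), in 10 of 16 whole introns and in 32 of 233 other loci (13.7%). In the 145, then, the last bases of the mature strand are mostly the last bases of the intron, as in the Mir6978 and Mir7086 loci whose hairpins are printed above.

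Several hosts of these loci are genes of innate and adaptive immunity, chosen here after their values were seen. Csf1r, which encodes the receptor for M-CSF, holds Mir6983 (64 bases) at the end of intron 9, which has 119 bases. C3 holds Mir6978 (57 bases) at the end of an intron of 94 bases, and the complement gene Cfb holds Mir6972 (64 bases) at the end of intron 13, of 99 bases. Mir7086 in Il10ra closes an intron of 457 bases, Mir6973a in Ltb, the lymphotoxin beta gene, an intron of 366 bases, and Mir7072 in Nlrc5, a regulator of MHC class I genes, an intron of 641 bases. Whether reads over such a locus come from the microRNA or from an unspliced host intron cannot be told from the annotation.

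The number in a microRNA's name is assigned in the order in which microRNAs were registered, and the position of the loci changed with it. For the 475 loci with numbers below 1000 or a let-7 name, 36.6% lay in coding introns, 6.95% touched coding exons, 14.3% lay in noncoding genes and 33.5% were intergenic. For the 373 loci with numbers of 6000 and above, 54.4% lay in coding introns, 71 of them touched coding exons, 2.41% lay in noncoding genes and 15.5% were intergenic. The 203 loci with numbers from 1000 to below 6000 had 41.4% in coding introns, 21.7% in exons and 21.2% intergenic. Clusters held 256 of the 475 low-numbered loci (53.9%), 11 of the 203 (5.42%) and 15 of the 373 (4.02%). Contact with the 3′ splice site ran the other way, at 1 of 187 intron-held loci below 1000 (0.535%), which is Mir877, at 12 of 98 (12.2%) and at 170 of 237 (71.7%).

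**Figure D3:**
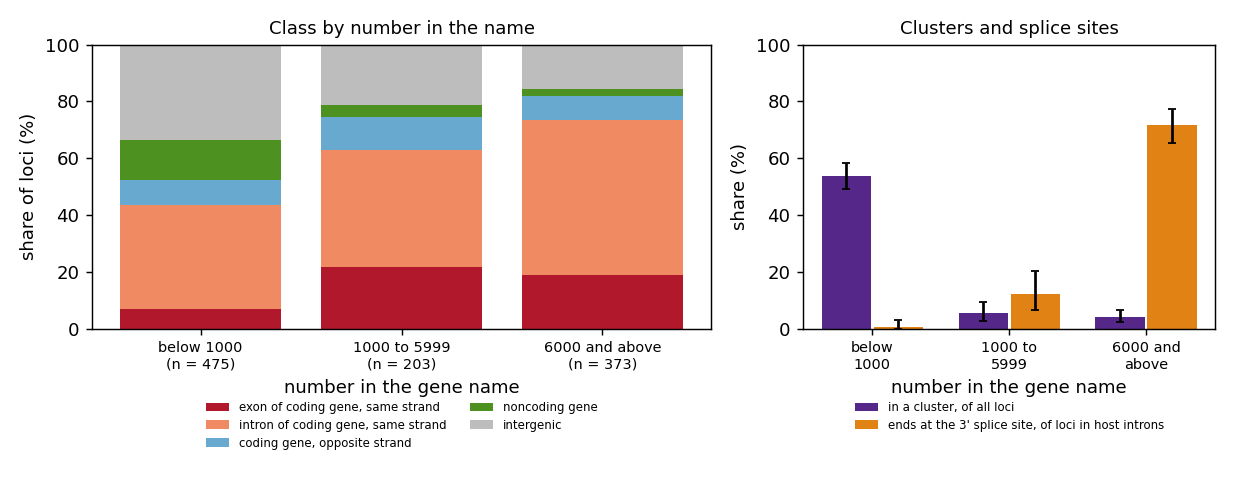
Left, share of loci (percent) in each position for 3 ranges of the number in the name. Right, share in a cluster (purple, of all loci in the range) and share ending within 2 bases of the 3′ splice site (orange, of loci inside host introns), with exact 95% binomial intervals as bars: the purple bars fall from 53.9% to 4.02% and the orange bars rise from 0.535% to 71.7%.

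Most of that contact came from a single run of names, noticed after the values were seen. Numbers 6897 to 7119 cover 181 members, of which 145 lie in coding introns, 35 touch coding exons and 1 is intergenic. Of the 171 that lie wholly in a host intron, 165 (96.5%) ended at the 3′ site and 169 (98.8%) reached either site. Outside this run the share at the 3′ site was 18 of 351 (5.13%). Their host introns had a median of 412 bases and ranged from 66 to 36269. Of 180 pairs of neighbouring names in the run, 174 were also in order of chromosome label and position. Clusters held 9 of the 181 (4.97%), against 273 of the 870 other members (31.4%).

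Clusters are runs of loci on the same strand with gaps under 10 kb. There were 68 of them, holding 282 loci (26.8%), and 769 loci stood alone. Of the clusters, 49 had 2 loci, 7 had 3 and 12 had 4 or more, and the 2 largest held 92 of the 282 clustered loci (32.6%). The span of a cluster had a median of 1513 bases (217 to 51617), and the gap between neighbours within a cluster a median of 575 bases (20 to 9254). Of 1011 neighbouring pairs on a strand, 129 were under 1 kb apart, 85 between 1 and 10 kb, 37 between 10 and 50 kb and 760 farther. The widest gap inside the limit was that between Mir1a-1 and Mir133a-2 at 9254 bases, and the narrowest outside it was that between Mir216b and Mir216a at 10735 bases.

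Clustering differed with position. Clusters held 47 of 86 loci in noncoding genes (54.7%), 104 of 260 intergenic loci (40.0%), 22 of 96 opposite loci (22.9%), 98 of 461 coding-intron loci (21.3%) and 11 of 148 exon loci (7.43%). Without Sfmbt2 the coding-intron share was 39 of 402 (9.70%). In 56 of the 68 clusters all loci were of the same class.

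The 10 clusters with the most loci were of several kinds, and an 11th, the intergenic Mir465 cluster on chromosome X, ties with the last 2 at 5 loci. The Sfmbt2 cluster runs from Mir466m to Mir669h (chr2:10466663-10518279, plus strand, 51617 bases). On chromosome 12, the imprinted Dlk1 and Dio3 region holds the 33 loci from Mir379 to Mir3072 (38901 bases), 13 of them in the noncoding gene Mirg and 20 in sequence annotated as intergenic. The 13 loci from Mir770 to Mir432 lie upstream in the same region, with 1 in Meg3, 5 opposite the coding gene Rtl1 and 7 intergenic. Chromosome X holds 13 intergenic loci from Mir743 to Mir470, 7 intergenic loci from Mir450b to Mir322, the 6 loci from Mir363 to Mir106a and the 5 Clcn5 loci. The 7 loci from Mir290a to Mir295 on chromosome 7, known from embryonic stem cells, span 2216 bases of intergenic sequence. The 5 loci from Mir302b to Mir367, known from the same cells, span 580 bases opposite Larp7. The cluster from Mir17 to Mir92-1 fits 6 loci into 836 bases of Mir17hg, and its chromosome X copy fits 6 loci into 875 bases, of which only Mir106a overlaps an annotated gene, Kis2.

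**Figure D4:**
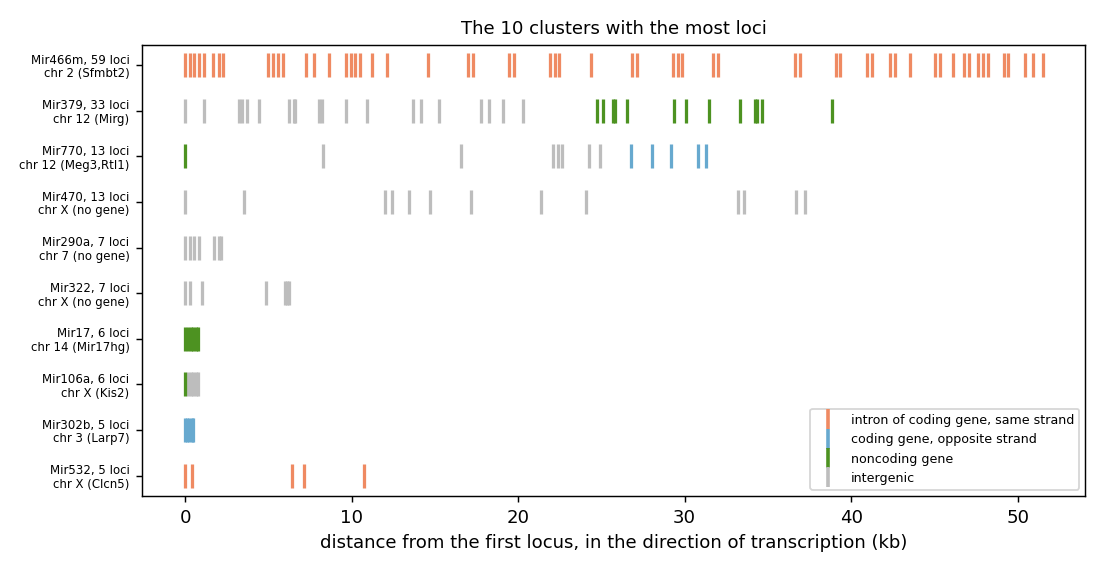
Position of every locus in the 10 clusters with the most loci, as distance from the first locus in the direction of transcription (kb, horizontal axis), coloured by position relative to genes. The Sfmbt2 cluster fills 51617 bases with 59 intron loci, the 33-locus chromosome 12 cluster changes from intergenic to Mirg along its length, and the Mir17, Mir106a and Mir302b clusters take under 1 kb each.

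Neighbours in a cluster did not always share a seed among their listed mature strands. Among 60 clusters with mature sequences for at least 2 loci, 29 had loci that share a seed and 31 had none. Of the 903 loci with a mature sequence, 327 have only 1 listed. Seeds on strands that are not listed could not be compared, so some of the 31 may share a seed that was not seen. In the cluster of Mir130b and Mir301b, for example, Mir301b is listed with the seed CUCUGAC alone. All 7 loci from Mir290a to Mir295 share a seed with another locus of their cluster, as do 4 of 6 in the Mir17 cluster and 4 of 6 in its chromosome X copy. In the Mir379 cluster, 9 of 32 loci with a mature sequence do so, and its loci carry 55 different seeds.

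The counts of seeds cover the 903 loci with mature sequences, and so 0 of the 59 Sfmbt2 loci, the members of the largest cluster. Over these 903 there were 1190 seeds, counting both strands of a hairpin where both are listed, and 182 of them occurred at 2 or more loci. Of those 182 seeds, 148 occurred on more than 1 chromosome and 105 in more than 1 class of position. A seed was shared with another locus by 137 of 208 clustered loci (65.9%) and by 254 of 695 single loci (36.5%). The let-7 seed GAGGUAG was the most frequent among them, at 11 loci on 7 chromosomes, of which 5 were intergenic, 3 in coding introns, 2 opposite coding genes and 1 in a noncoding gene. The only mature strand listed for Mirlet7a-2 has the seed UGUACAG, so this let-7 locus is not among the 11. Its other strand could not be compared. Next came AGCAGCA at 10 loci, among them Mir15a, Mir15b, Mir16-1, Mir16-2, Mir195a and Mir322, and the Mir17 family seeds AAAGUGC (7 loci) and, in miR-92a-3p and its relatives, AUUGCAC (7 loci). The Mir17 family set printed above holds 6 of the 7 AAAGUGC loci, and the remaining locus is Mir6383. A further 7 loci share the seed GUCAGGC and all belong to the Mir344 family, lie on 1 chromosome and are intergenic.

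MicroRNAs known from inflammation and the myeloid lineage stood in hosts of several kinds. Of the 25 symbols in this list 20 were found as members, with 9 in noncoding genes, 5 intergenic, 3 in coding introns and 3 touching coding exons. Mir155, induced in activated macrophages, lies at chr16:84714140-84714204 in the lincRNA gene Gm26667. Mir223, abundant in granulocytes and monocytes, lies on chromosome X in F630028O10Rik, classed as antisense. Mir21a (chr11:86584067-86584158, minus strand) lies completely within the 3′ untranslated region of Vmp1, an autophagy gene, so all 92 bases of the locus are also exon of a coding gene. Mir147 likewise lies, with its 79 bases, in the 3′ untranslated region of AA467197. Mir146 on chromosome 11, a feedback regulator of Toll-like receptor signalling, is intergenic, and so is Mir150. The second member of that family, Mir146b, lies in intron 1 of Tmem180, which has 25140 bases.

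Mir511 lies in intron 5 of Mrc1, the mannose receptor gene of macrophages, 107 bases before the 3′ splice site of an intron of 4071 bases. Mir342 lies in intron 3 of Evl, an actin regulator, in 20189 bases of intron. Mir125a shares 47 of its 68 bases with an exon of a Spaca6 transcript not classed as protein-coding, while Mir99b, the other locus of its cluster, is intergenic. Mir132 and Mir212 share the processed transcript 1700016P03Rik. Mir23a and Mir27a are intergenic, and Mir24-2 of the same cluster overlaps the lincRNA gene Gm26532. Neighbouring loci of a cluster can thus fall in different classes.

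The metabolic and muscle microRNAs of the lists were all in coding introns, 4 of 4 and 3 of 3. Mir33 lies in intron 16 of Srebf2, a regulator of cholesterol synthesis, in an intron of 1848 bases. Mir103-1 lies in intron 5 of Pank3 (1740 bases), Mir107 in intron 5 of Pank1 (7282 bases) and Mir103-2 in intron 3 of a Pank2 transcript (984 bases). Mir208a lies in intron 29 of the 38 introns of Myh6 (542 bases) and Mir208b in intron 31 of 40 in Myh7 (461 bases). Both introns are followed by 9 more, so these loci have the same place counted from the end of the host. Mir499 lies in intron 19 of 41 in Myh7b (481 bases).

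**Figure D5:**
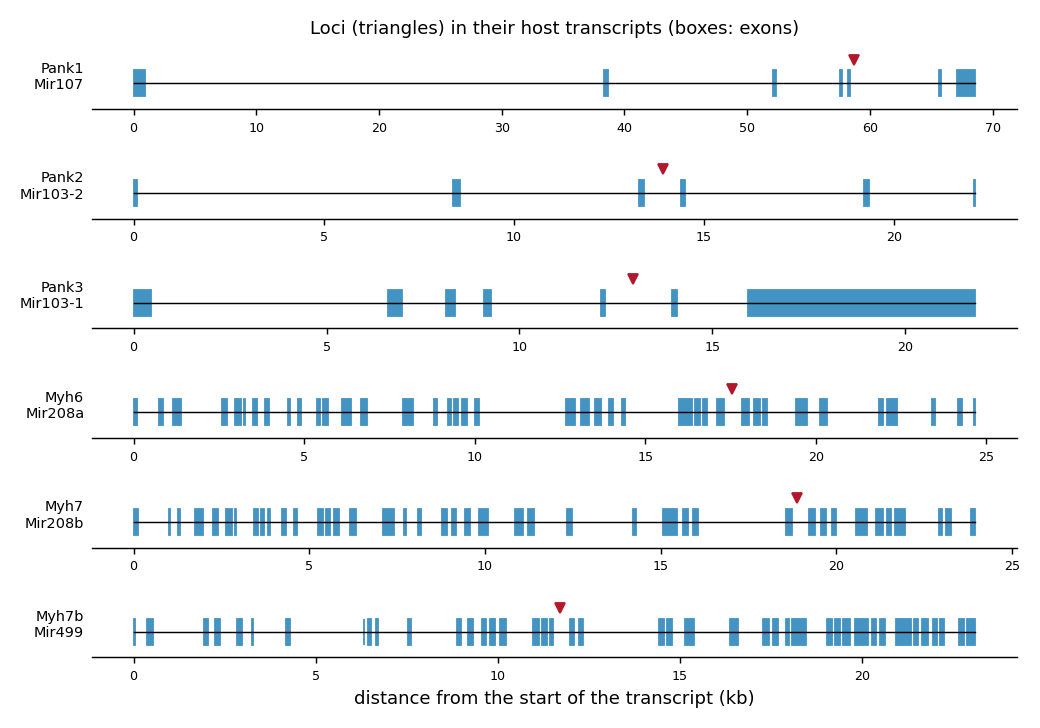
Host transcripts of the Mir103 and Mir107 loci (3 Pank genes) and of the Mir208 and Mir499 loci (3 myosin heavy chain genes), drawn from the transcript start (kb, horizontal axis, a scale for each), with exons as boxes and the locus as a red triangle. The Pank loci lie 12.9 kb (Pank3), 13.9 kb (Pank2) and 58.7 kb (Pank1) from the start of their transcripts, and the Myh6 and Myh7 loci lie in the tenth intron from the end.

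Of the 15 members found for the Mir17 family clusters, 7 lie in noncoding genes, 5 are intergenic and 3 lie in Mcm7, which encodes a subunit of the replicative helicase. Mir106b, Mir93 and Mir25 are all within intron 13 of Mcm7, of 748 bases. Mir93 and Mir25 are also covered by exons of Mcm7 transcripts not classed as protein-coding and so count as exon loci. Mir15b and Mir16-2 share an intron of Smc4, a condensin gene, and Mir15a and Mir16-1 share Dleu2, a noncoding gene. The let-7 loci were 4 intergenic (Mirlet7i, Mirlet7a-1, Mirlet7b and Mirlet7c-2), 2 in noncoding genes (Mirlet7a-2 and Mirlet7d), 2 in coding introns (Mirlet7g in Wdr82 and Mirlet7f-2 in Huwe1) and 1 opposite a coding gene (Mirlet7c-1). In all, the lists and the let-7 loci gave 66 members, with 20 in noncoding genes, 19 in coding introns, 19 intergenic, 7 in exons and 1 opposite. These lists hold well-studied microRNAs and are no sample of the 1051 loci.

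Among vessel and position-related loci, Mir126a lies in Egfl7, a gene of endothelial cells, where exons of transcripts not classed as protein-coding cover all of its 73 bases. It also lies wholly in intron 7 of another Egfl7 transcript, an intron of 600 bases. Mir143 and Mir145a form an intergenic pair, and Mir210, induced by low oxygen, is intergenic. Mir10b lies within the spans of Hoxd3 and Hoxd4 without touching an exon, and intron 4 of a Hoxd4 transcript, of 897 bases, holds it. Mir196a-2 and Mir615 lie in introns of Hoxc5. Mir10a and Mir196a-1, both on chromosome 11, are intergenic. Exons of Hoxa9 transcripts not classed as protein-coding cover all 85 bases of Mir196b. That locus also lies wholly in intron 1 of another Hoxa9 transcript, an intron of 5404 bases. Mir140, known from cartilage, lies in intron 16 of Wwp2, an intron of 2141 bases.

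Chromosome 2 held the most loci, 125 or 11.9%, of which 67 were clustered. Chromosome X held 84 with 53 in clusters, and chromosome 12 held 81 with 49 in clusters. Chromosome 12 also had the most loci per annotated gene, 5.27 for every 100 genes. Chromosome 18 had the fewest, 29, and chromosome Y had none. Piezo1, the gene deleted in the KO groups (chr8:122481698-122551329, minus strand), held 0 loci. The nearest was Mir6396, 70935 bases away in intron 1 of Pabpn1l, followed by Mir7237 at 503611 bases and Mir7079 at 553645 bases.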

How the data were processed

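The authors deposited a GTF annotation of 1500259 lines, which serves all samples. Its values are 1-based start and end coordinates on GRCm38, per the labels, and 0 of its columns hold values of a library. Which release it is, the labels do not say. Per the submitters' processing notes, the tools were TopHat2, Bowtie2, Cufflinks, CASAVA 1.8 and FastQC, given without role or order.

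Genes and exons were read in Python 3.11.15 (numpy 2.4.6), and intervals were computed in scipy 1.17.1. Each locus was classed in a fixed order. An exon locus shares at least 1 base with an exon of a protein-coding gene on its strand. An intron locus lies in such a gene without touching an exon. Next came coding genes on the opposite strand, then noncoding genes other than small RNA genes and immune receptor segments, then intergenic sequence. The host intron is the shortest intron that holds the whole locus, over the transcripts of every same-strand coding gene there. Exact 95% binomial intervals served as a yardstick for alternatives and as bars on the shares by number in the name. They measure no spread between samples, since every member was counted. The classing and clustering code was tested on simulated gene models. RefSeq (GRCm38.p6) gave hairpin and mature sequences.

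No library entered and no test between groups was made. The members and lists were chosen with earlier results of these data known. Named genes are hosts with 4 or more loci, the 10 clusters with the most loci, members of the microRNA lists, the extremes of host intron and distance to the start, the loci nearest to Piezo1 and the most shared seeds; others are marked as chosen after their values were seen. Alternatives changed the overlap rule, transcripts, class order, members, gap, strand and annotation (GENCODE M21).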

Additional observations from a re-analysis of the deposited data

How the results depend on the processing

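Of 77 alternatives, 52 left the value in place and 25 moved it. The yardstick was the exact 95% binomial interval for a share and a factor of 1.5 for a count or median. Some of the 52 outcomes were fixed in advance. All members lie on chromosomes 1 to 19 or X, so keeping to chromosomes 1 to 19, X and Y changed nothing. Placing noncoding genes before the opposite strand cannot alter the exon, intron or intergenic shares. Leaving out pseudogenes cannot alter the exon, intron or opposite shares. Taking every miRNA gene, whatever its name, gave 132 clusters, 795 hosts, a clustered share of 22.8%, intron 32.6%, exon 10.4%, opposite 13.4% and intergenic 36.1%, a same-strand share of 75.7%, a median host intron of 8729 bases and a 3′ splice-site share of 26.0%. Without Sfmbt2, an alternative chosen after seeing the data, the clustered share was 22.5%, the intron share 40.5%, the median host intron 2491.5 bases and the splice-site share 39.5%. A gap limit of 1 kb gave a clustered share of 18.7%, and 50 kb gave 32.4%. Requiring the whole locus inside gave 48.7% intron and 8.94% exon, and protein-coding transcripts alone gave 10.7% exon. Each cluster counted once gave 16.8% exon, 6.45% noncoding and 21.5% intergenic. The longest holding intron gave a median of 6388 bases. GENCODE M21 gave 11.1% noncoding and 20.4% intergenic. Crediting every same-strand coding gene over a locus, also chosen after seeing the data, gave 522 hosts in place of 519. No paired analysis was possible because no library values were used and each group has 1 library.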

Other observations

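All 1051 loci have the same identifier, position and strand in GENCODE M21, another annotation of the same build, and 1047 have the same name there. Of the 1051, 989 kept their class and 62 had another. The most frequent moves were from intergenic to noncoding gene (25 loci), from intergenic to opposite a coding gene (13) and from coding intron to coding exon (11). The naming rule takes 1174 genes in GENCODE M21, where 123 of the 167 mmu-mir genes bear a Mir name. The loci thus stayed in place, and the classes and the membership changed with the other genes and the names around them.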
